A study of Mus musculus with 9 samples.

Results

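The Nr4a genes Nr4a1, Nr4a2 and Nr4a3 encode a family of 3 orphan nuclear receptors, and they were 3 of 18193 named genes on the mouse arrays, read by 10 of 45037 probe sets. All probe sets that the platform's probe table assigns to these symbols were taken, with no selection on their values: 1 for Nr4a1 (Entrez gene 15370), 6 for Nr4a2 (18227) and 3 for Nr4a3 (18124). RNA came from primary white adipocytes, grown from the stromal-vascular cells of inguinal fat of male C57BL6 mice aged 30 to 35 days. There were 3 arrays of cells given PTH(1-34) at 100 ng/ml for 4 h, 3 of cells given PTHrP(1-34) at 100 ng/ml for 4 h, and 3 of control cells, whose own treatment the sources used here do not give. Fat cell formation in all 3 groups had been started by 2 days of rosiglitazone (1 µM), isobutylmethylxanthine (0.5 µM), insulin (5 µg/ml) and dexamethasone (1 µM). Rosiglitazone and insulin were then continued, plain medium followed from day 6, and the peptides were given on day 8. PTH is parathyroid hormone, PTHrP is parathyroid hormone-related protein, and (1-34) names the amino-terminal fragment with which each acts on their shared receptor, Pth1r. The labels call the replicates biological without saying whether they were separate mice or separate cultures, so p-values measure only the spread between these samples.

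The Nr4a receptors are transcription factors for which no classical hormone ligand is needed, so their activity follows largely from how much of them is made. Their genes are immediate early genes: cAMP, acting through protein kinase A and the transcription factor CREB on cAMP response elements (CREs) in their promoters, turns them on quickly and for a short time, without new protein synthesis. Nr4a1 (Nur77), Nr4a2 (Nurr1) and Nr4a3 (Nor1) share a DNA-binding domain that reads the element called NBRE, and Nr4a1 and Nr4a2, unlike Nr4a3, can also bind DNA together with the retinoid X receptors. In mouse osteoblasts PTH induces all members of the family, and in mouse brown fat beta-adrenergic stimulation does so.

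The promoters are shown because the family is known for its cAMP response elements and because its members differed in the data that follow. RefSeq gave a window of 300 bases for each of the 3 genes, running 5′ to 3′ from 250 bases before to 50 bases after the transcription start (GRCm38.p6). Capitals mark every CRE core, the letters TGACG on the printed strand or its reverse complement CGTCA. The Nr4a3 window lies at chr4:48045055-48045354 on the plus strand, the Nr4a2 window at chr2:57123954-57124253 on the minus strand, and the Nr4a1 window at chr15:101266596-101266895 on the plus strand.
Nr4a3: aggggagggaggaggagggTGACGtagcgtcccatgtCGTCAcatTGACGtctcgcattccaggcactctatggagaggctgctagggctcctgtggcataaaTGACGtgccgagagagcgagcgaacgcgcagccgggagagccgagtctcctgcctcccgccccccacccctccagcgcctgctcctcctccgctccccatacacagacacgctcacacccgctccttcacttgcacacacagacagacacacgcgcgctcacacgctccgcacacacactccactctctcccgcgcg
Nr4a2: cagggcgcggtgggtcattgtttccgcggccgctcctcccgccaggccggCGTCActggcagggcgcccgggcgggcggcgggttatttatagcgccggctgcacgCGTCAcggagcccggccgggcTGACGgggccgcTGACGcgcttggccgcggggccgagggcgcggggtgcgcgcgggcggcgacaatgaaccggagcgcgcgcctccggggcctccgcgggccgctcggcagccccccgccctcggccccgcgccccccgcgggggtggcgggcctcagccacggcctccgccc
Nr4a1: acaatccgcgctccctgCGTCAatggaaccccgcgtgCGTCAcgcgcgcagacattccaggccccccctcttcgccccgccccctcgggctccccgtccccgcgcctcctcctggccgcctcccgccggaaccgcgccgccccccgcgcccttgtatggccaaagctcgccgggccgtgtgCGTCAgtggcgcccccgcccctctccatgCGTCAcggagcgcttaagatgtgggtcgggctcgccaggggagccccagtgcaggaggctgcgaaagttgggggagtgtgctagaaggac

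Each of the 3 windows held 4 CRE cores. Over all 32851 RefSeq promoter windows of the same length, on both strands, 20.8% held at least 1 CRE core and 0.231% held at least 4. In Nr4a3 the nearest to the start began at base -147, and those at bases -213 and -205 were on opposite strands. In Nr4a2 the 4 began between bases -200 and -111. In Nr4a1 they stood on the minus strand, at bases -233, -213, -69 and -40, so 2 of them were close to the start. The full palindrome, TGACGTCA, was in 0 of the 3 windows and in 1.79% of all windows. The NBRE, AAAGGTCA, was in 0 of the 3 windows too, and in 1.51% of all. A match only describes the letters, and the arrays did not measure binding to them.

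**Figure D1:**
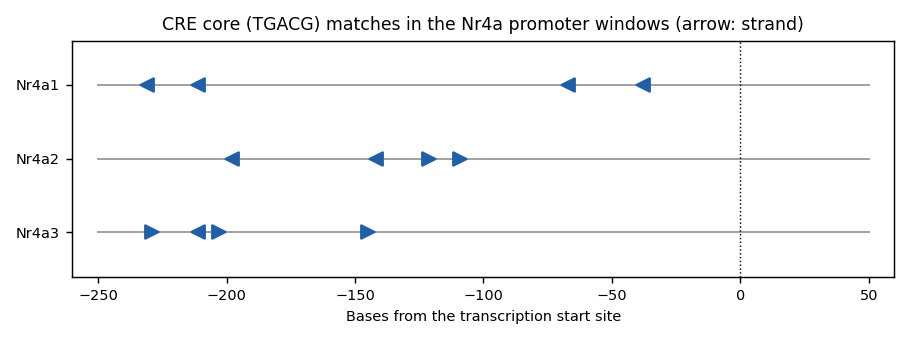
Positions of the CRE core (TGACG) in the promoter windows of Nr4a1, Nr4a2 and Nr4a3, in bases from the transcription start (dotted line); each arrow is 1 match and points along the strand that carries it. Each gene has 4 matches, and those nearest to the start, at bases -69 and -40, are in Nr4a1.

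The arrays were alike in scale, with a median signal between 48.3 and 52.7. A probe set is called dim here when its mean signal over the 9 arrays was below 29.03, the 40th percentile. The adipocyte markers were bright: all 6 of 6 measured lay above the dim level, and their summed signal was 48465 to 51622 with PTH, 46875 to 49342 with PTHrP and 46944 to 49121 in controls. RNA quality was read from the 3′ to 5′ signal ratio of beta-actin's array controls, which was 1.61 ± 0.0312 with PTH, 1.56 ± 0.0457 with PTHrP and 1.47 ± 0.0324 in controls (SD, n = 3 each), and every one of the 6 treated arrays exceeded the 3 controls (p = 0.0119 by exact permutation, two-sided, the least possible with 84 splits). The same ratio for Gapdh was 0.983 ± 0.0047 with PTH, 0.960 ± 0.0257 with PTHrP and 0.965 ± 0.0186 in controls (exact two-sided permutation p = 0.643). The beta-actin ratio therefore moved with every treated-against-control difference given here, and its part in them was not tested.

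Of the 10 probe sets, 2 rose with PTH and 0 fell, against a background of 2.70% of all probe sets that passed with PTH (1.34% higher and 1.37% lower). With PTHrP 2 rose and 0 fell, against 2.39% of all probe sets (1.19% higher and 1.20% lower). With both peptides together against control the same 2 rose, against 4.13% of all probe sets (2.00% higher and 2.13% lower). A probe set passed when limma's adjusted p over all 45037 was below 0.05. The 2 that rose were the same with both peptides, 1438796_at of Nr4a3 and 1455034_at of Nr4a2, so the family was represented among the calls by 1 probe set of each of 2 genes. Unadjusted, 3 of the 10 had p below 0.05 with PTH, with PTHrP and with both peptides together, beside 14.7%, 14.0% and 16.4% of all probe sets. The median log2 change of the 10 was 0.059 with PTH and 0.16 with PTHrP, beside -0.0054 and -0.00061 over all probe sets. The comparisons with PTH and with PTHrP share the same 3 control arrays. Fewer cells that express a gene and less RNA per cell cannot be told apart in such bulk samples.

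Nr4a3 rose about 2-fold in signal with either peptide, as read by its brightest probe set. Its signal at 1438796_at was 102.46, 110.46 and 129.63 on the PTH arrays, 135.61, 114.03 and 99.1 on the PTHrP arrays, and 52.23, 48.16 and 58.3 on the control arrays. The lowest treated array stood well above the highest control, and the 2 peptides overlapped. The means were 114 ± 14.0 with PTH, 116 ± 18.4 with PTHrP and 52.9 ± 5.10 in controls (SD, n = 3 each), which is 2.16 times the control mean with PTH and 2.20 times with PTHrP. On the scale of log2(signal + 16), used for every log2 change here and smaller than the plain ratio at low signal, the change was 0.92 with PTH (SE 0.12, 95% interval 0.64 to 1.19, adjusted p = 0.00675, limma). With PTHrP it was 0.93 (SE 0.12, 95% interval 0.66 to 1.20, adjusted p = 0.00598). Ranked by log2 change among all 45037 probe sets, this one was 65th with PTH and 65th with PTHrP. It passed in each comparison without any 1 of the 9 arrays, with adjusted p up to 0.0349 for PTH and 0.0311 for PTHrP.

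The other 2 probe sets of Nr4a3, which share 1 source sequence in the probe table, were dim on all 9 arrays and bear little on the gene. At 1421079_at the signal was 2.68, 6.26 and 4.98 with PTH, 9.22, 5.09 and 5.78 with PTHrP, and 8.65, 7.4 and 4.75 in controls. PTH replicate 1 was below and PTHrP replicate 1 above all controls, while the other treated arrays lay within the range of the controls, and the log2 changes were -0.15 with PTH and -0.016 with PTHrP (adjusted p = 0.574 and 0.975, limma). At 1421080_at the signal was 2.56, 1 and 1.5 with PTH, 1 on all PTHrP arrays, and 2.22, 1.87 and 1.87 in controls. The value was exactly 1 on 4 arrays, and no order was read from differences at this level. When the 3 probe sets of Nr4a3 were averaged, the log2 change was 0.25 with PTH (adjusted p = 0.0785, limma) and 0.28 with PTHrP (0.0523). The call for Nr4a3 with each peptide thus rests on 1438796_at. With both peptides together the averaged change was 0.26, which passed (adjusted p at most 0.028, limma).

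**Figure D2:**
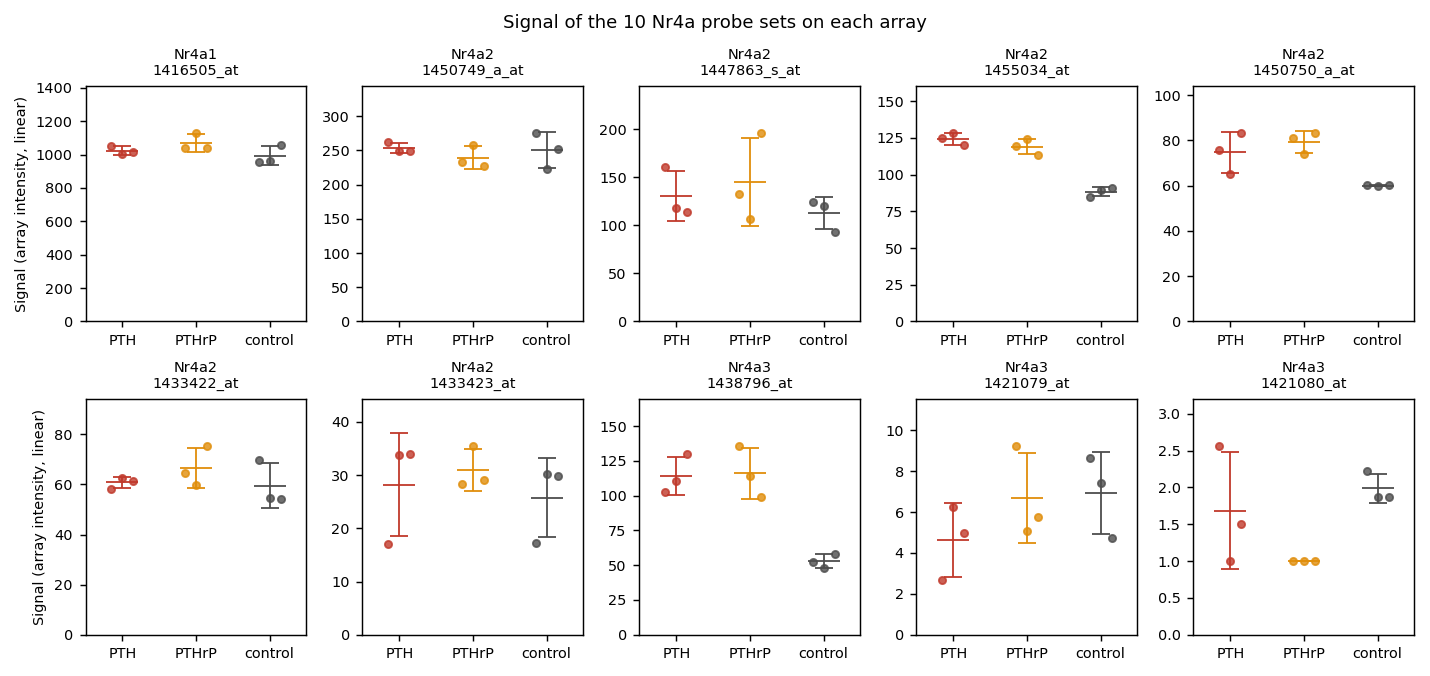
Signal (linear array intensity, axis from 0) of each Nr4a probe set on every array, with PTH, PTHrP and control from left to right; points are arrays, and the wide bar and whiskers are the mean and SD of 3. At Nr4a3 1438796_at the 6 treated arrays lie between 99.1 and 135.61 and the controls between 48.16 and 58.3, while at Nr4a1 1416505_at the groups overlap.

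Nr4a2 gave no single answer over its 6 probe sets. At 1455034_at the signal was 124.99, 128.4 and 120.24 with PTH, 119.17, 124.02 and 113.55 with PTHrP, and 84.84, 89.41 and 90.59 in controls. All 6 treated arrays lay above all controls, with little spread inside a group. The log2 change was 0.43 with PTH (SE 0.06, 95% interval 0.30 to 0.56, adjusted p = 0.0074, limma) and 0.37 with PTHrP (SE 0.06, 95% interval 0.24 to 0.50, adjusted p = 0.0143), 1.41 and 1.35 times the control mean in plain signal. The PTH call held without any 1 array (adjusted p up to 0.0455), but the PTHrP call was lost without control replicate 1 (0.0542), PTHrP replicate 1 (0.0613) or PTHrP replicate 2 (0.0537).

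A second Nr4a2 probe set, 1450750_a_at, moved the same way without passing. Its signal was 75.61, 65.36 and 83.36 with PTH, 81.06, 74.06 and 83.36 with PTHrP, and 60.2, 59.87 and 60.2 in controls. Every treated array was above every control here as well, with log2 changes of 0.25 for PTH (adjusted p = 0.177, limma) and 0.33 for PTHrP (adjusted p = 0.087). For both peptides together against control it was 0.29 (95% interval 0.13 to 0.45, adjusted p = 0.0609), and this passed without PTH replicate 2 (adjusted p = 0.0348). Groups that do not overlap in this way, all 6 treated arrays above all 3 controls, were found at 3 of the 10 probe sets of the family and at 5.74% of all probe sets.

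The brightest Nr4a2 probe set, 1450749_a_at, which shares its source sequence with 1450750_a_at, showed no such separation. Its signal was 261.49, 249.5 and 249.32 with PTH, 232.47, 258.23 and 227.54 with PTHrP, and 275.53, 223.2 and 251.58 in controls, with the treated arrays inside the range of the controls. The log2 change was 0.022 with PTH (95% interval -0.17 to 0.21, adjusted p = 0.945, limma) and -0.056 with PTHrP (95% interval -0.25 to 0.14, adjusted p = 0.846). Both intervals end below the change seen at 1455034_at. The log2 difference within each array between 1450749_a_at and 1455034_at was 0.88 to 0.98 on treated arrays and 1.18 to 1.53 on controls (exact two-sided permutation p = 0.0119). Of the 15 pairs of Nr4a2 probe sets compared so, 0 passed after adjustment, with 0.179 the smallest adjusted p. As 0.0119 is the least p possible with 84 splits, 1 pair alone at that p could not pass over 15 pairs. The count of 0 therefore cannot decide whether these probe sets differ.

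The remaining 3 Nr4a2 probe sets did not pass in any comparison. At 1447863_s_at, a kind of probe set that can take up transcripts of other genes too, the signal was 160.73, 118.41 and 113.68 with PTH, 132.29, 106.68 and 196.4 with PTHrP, and 124.68, 120.11 and 93.37 in controls. Its log2 changes were 0.19 and 0.29 with PTH and PTHrP, with 95% intervals from -0.29 to 0.66 and from -0.18 to 0.77, the widest of the 10 probe sets. At 1433422_at the signal was 58.26 to 62.66 with PTH, 59.87 to 75.27 with PTHrP and 54.08 to 69.81 in controls. At 1433423_at, dim on average, it was 17 to 33.91 with PTH, 28.33 to 35.45 with PTHrP and 17.18 to 30.28 in controls, all overlapping. With the mean of all 6 probe sets the log2 change of Nr4a2 was 0.17 with PTH and 0.21 with PTHrP (adjusted p = 0.0551 for PTHrP, limma), and 0.19 with both peptides together, which passed (adjusted p = 0.0369).

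**Figure D3:**
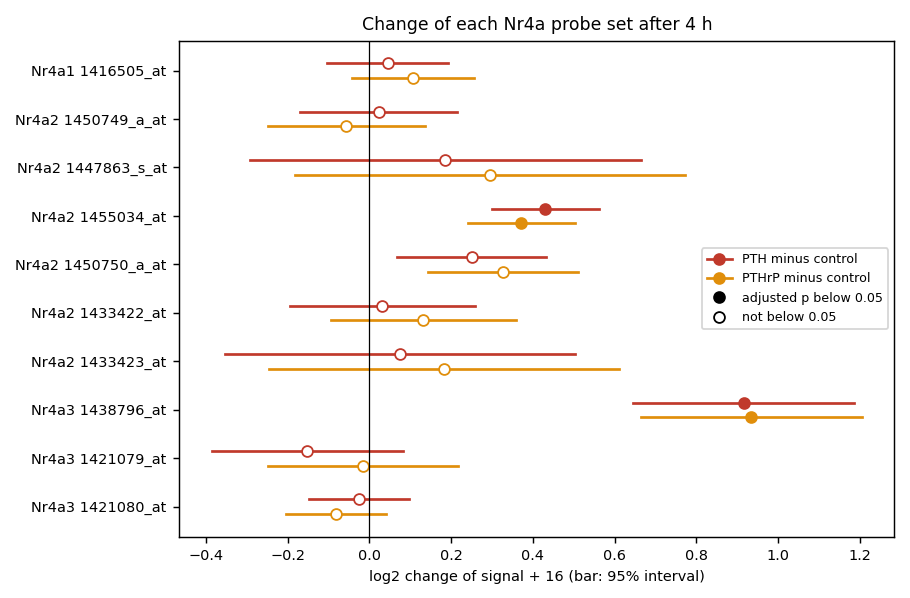
Log2 change of signal + 16 at each Nr4a probe set for PTH minus control (red, upper) and PTHrP minus control (orange, lower), with 95% intervals; filled points passed at an adjusted p below 0.05. Nr4a3 1438796_at stands at 0.92 and 0.93 and Nr4a2 1455034_at at 0.43 and 0.37, and the other 8 probe sets have open points.

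Nr4a1, by far the brightest of the family, showed no change that passed at 4 h. Its single probe set, 1416505_at, read 1051.69, 1002.78 and 1014.52 with PTH, 1037.96, 1130 and 1039.61 with PTHrP, and 958.03, 960.05 and 1058.9 in controls. Control replicate 3 was above 5 of the 6 treated arrays, so the groups overlapped. The means were 1023 ± 25.5 with PTH, 1069 ± 52.7 with PTHrP and 992 ± 57.7 in controls (SD, n = 3 each). The log2 change was 0.044 with PTH (95% interval -0.10 to 0.19, adjusted p = 0.835, limma) and 0.11 with PTHrP (95% interval -0.042 to 0.25, adjusted p = 0.543). In fold of signal + 16 those intervals run from 0.931 to 1.14 and from 0.971 to 1.19.

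The response of Nr4a3 differed from that of Nr4a1 on the same arrays. With each gene read by its brightest probe set, the log2 change with both peptides was larger by 0.85 in Nr4a3 than in Nr4a1, and larger by 0.94 in Nr4a3 than in Nr4a2 (exact two-sided permutation of the difference within each array, p = 0.0119 for each, adjusted p = 0.0179 over 3 pairs). The log2 difference between Nr4a3 and Nr4a1 was -3.20 to -2.80 on the 6 treated arrays and -3.93 to -3.84 on the controls, with no overlap. Nr4a2 and Nr4a1 differed by -0.092 in the same comparison (exact permutation p = 0.286, adjusted p = 0.286). For Nr4a2 these comparisons were made with 1450749_a_at only. The log2 changes of its other probe sets with both peptides ran from 0.081 at 1433422_at to 0.40 at 1455034_at, beside 0.92 at Nr4a3 1438796_at. Those probe sets were not compared with Nr4a3 or Nr4a1 in this way. Across the 9 arrays the log2 signals of Nr4a3 1438796_at and Nr4a2 1455034_at had a Pearson r of 0.94, and those of Nr4a3 1438796_at and Nr4a2 1450750_a_at one of 0.86. These are descriptions over arrays that share the split into treated and control.

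The 2 peptides, which differ in amino acid sequence, were compared directly at the same dose and time. At Nr4a3 1438796_at PTH minus PTHrP was -0.019 on the log2 scale (95% interval -0.29 to 0.25, adjusted p = 1.00, limma), a fold between 0.818 and 1.19. At Nr4a2 1455034_at it was 0.059 (95% interval -0.071 to 0.19), a fold between 0.952 and 1.14, and at Nr4a1 it was -0.062 (95% interval -0.21 to 0.086). None of the 10 probe sets passed for PTH against PTHrP, where 0% of all probe sets passed in limma and 1911 had an unadjusted p below 0.05, of them 0 in the family. These intervals bound a difference between the peptides and do not show that they act alike.

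Genes whose signal followed Nr4a3 most closely were sought over the 9 arrays, among 12821 genes whose mean over the same arrays was above the dim level. The 5 with the highest Pearson r were Sphkap, which encodes a protein that anchors protein kinase A (r = 0.992), the chromatin protein gene Tox3 (0.989), Tiparp, an ADP-ribosyltransferase gene (0.986), the cytokine gene Il33 (0.984) and Tnfsf11, which encodes RANKL (0.983). As for Nr4a3, PTHrP replicate 1 was the highest of the 9 arrays for each of these 5 genes. The sizes ranged widely, from log2 changes of 0.25 with PTH and 0.24 with PTHrP for Tiparp, which did not pass (adjusted p = 0.0831 and 0.0971, limma), to 1.80 and 1.78 for Tox3. The control arrays of Tox3 (3.66, 5.55 and 8.4) and of Sphkap (26.7, 24.1 and 26.42) lay below the dim level. Both genes entered the search through their treated arrays. Over the alternatives the PTH change of Tox3 ran from 0.83 to 3.20. A likeness of this kind, over 9 arrays in 3 groups, is mostly the split between treated and control and says nothing of shared control.

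**Figure D4:**
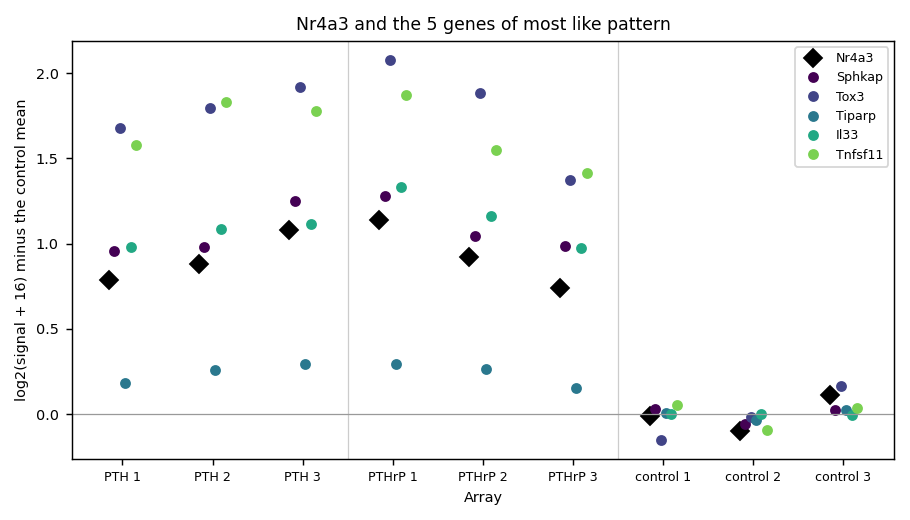
Log2(signal + 16) of Nr4a3 1438796_at (black diamonds) and of the 5 genes of most like pattern (circles) on each array, as the difference from the mean of the 3 controls. All 6 genes lie above 0 on the 6 treated arrays, and Nr4a3 is between Tiparp, with log2 changes of 0.25 and 0.24, and Sphkap, with 1.06 and 1.10.

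Nr4a3 rose alongside some cAMP-responsive and immediate early genes and not others. Of 25 such genes, all measured, 5 rose, 1 fell and 19 did not pass with PTH, and the counts were the same with PTHrP, against 3.79% of all genes read by their brightest probe set with PTH (1.82% higher and 1.97% lower) and 3.38% with PTHrP (1.57% higher and 1.81% lower). The median log2 change of the list was 0.094 with PTH and 0.14 with PTHrP, beside -0.0027 and -0.005 over all genes. The balance depended on the setting: with dim probe sets left out or with a trended and robust variance, 7 rose and 5 fell with PTH, and 7 rose and 6 fell with PTHrP. More of all probe sets passed in these settings too. With PTH they were 2231 of 27022 and 2611 of 45037, and with PTHrP 1998 of 27022 and 2375 of 45037. With both peptides together against control, 7 of the listed genes rose and 4 fell in the main fit, against 4.13% of all probe sets (2.00% higher and 2.13% lower). Those that rose with each peptide, with log2 changes near that of Nr4a3, were the cAMP repressor gene Crem (0.91 with PTH and 0.94 with PTHrP), the phosphodiesterase genes Pde4d (0.97 and 0.96) and Pde4b (0.77 and 0.78), the small GTPase gene Gem (0.91 and 1.02) and the AP-1 gene Fosl1 (0.89 and 0.95). Egr3, an immediate early gene, fell (-0.59 and -0.74). Its PTH call was lost without control replicate 3 (adjusted p = 0.054, limma), PTH replicate 1 (0.0612), PTH replicate 2 (0.062) or PTH replicate 3 (0.0518). Its PTHrP call was lost with the mean of its probe sets, where the log2 change was -0.39 (adjusted p = 0.111).

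Other quick responders, like Nr4a1, did not pass with either peptide alone in the main fit. Fos, the prototype immediate early gene, had log2 changes of -0.033 with PTH and -0.17 with PTHrP (adjusted p = 0.909 and 0.414, limma). Egr1 had -0.29 and -0.28 (adjusted p = 0.0505 and 0.0594), both of which passed without control replicate 1 (0.0401 and 0.0486). Egr1 passed in 6 of 19 alternative settings with each peptide. With both peptides together against control it fell and passed in the main fit (-0.29, adjusted p = 0.0234, limma). Ppargc1a, a coactivator gene and a CREB target, had 0.16 and 0.14 (adjusted p = 0.383 and 0.476). Of the 18 genes of this list with a RefSeq promoter window, 14 held a CRE core and 3 the full CRE, beside 20.8% and 1.79% of all windows.

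**Figure D5:**
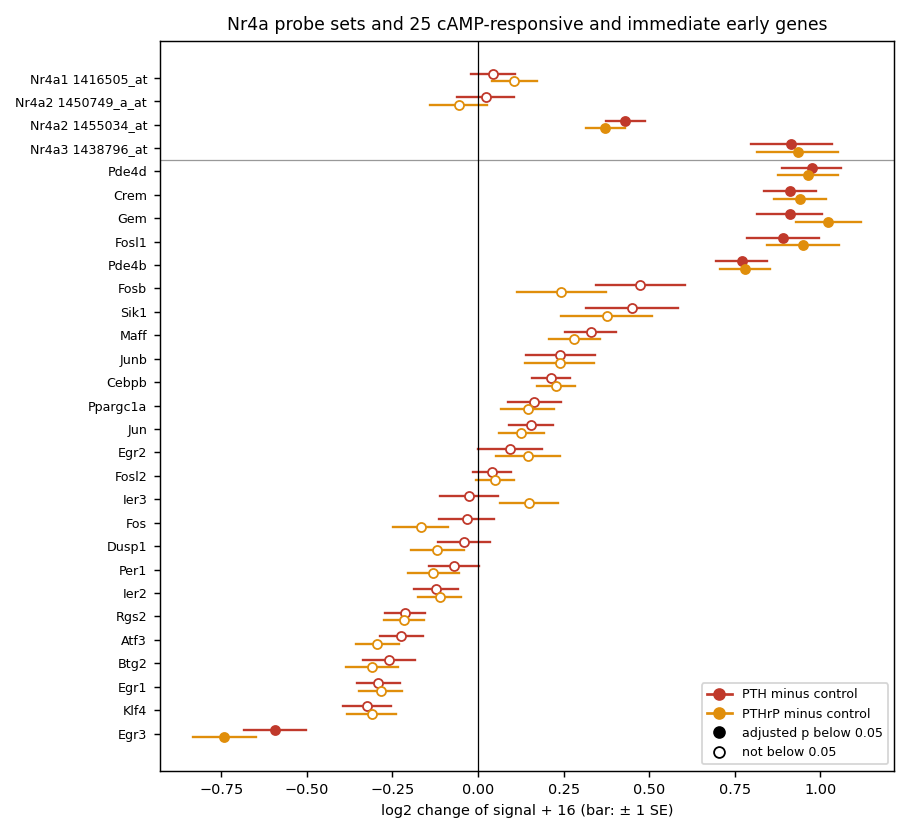
Log2 change of signal + 16, ± 1 SE, of 4 Nr4a probe sets (top) and 25 cAMP-responsive and immediate early genes (below the line, ordered by the PTH change), for PTH minus control (red) and PTHrP minus control (orange); filled points passed at an adjusted p below 0.05. Nr4a3 at 0.92 and 0.93 lies level with Crem, Gem, Pde4d and Fosl1, and Nr4a1 at 0.044 and 0.11 lies among the genes with open points.

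Upstream of the family, 17 genes of the path from receptor to CREB and of factors acting on Nr4a promoters gave 1 rise and 3 falls with each peptide, against the 3.79% of all genes that passed with PTH and 3.38% with PTHrP. The adenylyl cyclase gene Adcy3 rose (0.63 with PTH and 0.56 with PTHrP), and Pth1r (-0.43 and -0.43), Mef2a (-0.40 and -0.41) and Mef2c (-0.51 and -0.58) fell. Mef2d, of the same family as the last 2, did not pass (0.10 and 0.13, adjusted p = 0.511 and 0.418, limma). Pth1r was lost with PTH without any 1 array other than PTH replicate 3 (adjusted p = 0.0534 to 0.133, limma) and with PTHrP without any 1 array other than PTH replicate 1 or PTH replicate 3 (0.0643 to 0.129). Mef2a was lost with PTH without PTH replicate 2 (0.0603) or PTH replicate 3 (0.064), and with PTHrP when only the groups compared were fitted (0.0674). Without PTH replicate 2 the list held 2 calls with PTH in place of 4.

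Downstream, of 23 genes described as Nr4a targets in mouse tissues, 20 were measured, 7 of them dim, and 1 rose and 1 fell with each peptide, against the same 3.79% and 3.38% of all genes. Ucp1, whose protein lets brown and beige fat mitochondria make heat, rose to a signal of 1814 ± 307 with PTH, 1619 ± 141 with PTHrP and 16.7 ± 6.49 in controls. Slc2a4, the insulin-regulated glucose transporter, fell (-0.33 with PTH and -0.38 with PTHrP). That call was lost with PTH without any 1 of the 9 arrays (adjusted p = 0.0546 to 0.158, limma) and with PTHrP without any 1 array other than control replicate 2 (0.0514 to 0.101). The other 18 did not pass. None of the 20 target genes with a promoter window held an NBRE in it, beside 1.51% of all windows, so few would be looked for among 20. The retinoid X receptors, dimer partners of Nr4a1 and Nr4a2, and other nuclear receptors that interact with them gave 0 calls among 7 measured of 9 listed in limma, with Rxra at 0.026 and -0.0092.

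Markers of other cells that the cultures could hold were read as summed signals. A sum is weighted to its brightest genes, such as Csf1r (mean signal 564) among the macrophage and Cd8a (150) among the lymphocyte markers. A steady sum therefore cannot show a steady content of those cells. The calls of the markers stand beside 3.79% of all genes that passed with PTH (1.97% lower) and 3.38% with PTHrP (1.81% lower). Of 8 macrophage markers 0 passed, and their summed signal was 1172 to 1373 with PTH, 1157 to 1315 with PTHrP and 1164 to 1228 in controls, with Itgam and Mrc1 dim. Endothelial markers summed to 247 to 291 with PTH, 262 to 339 with PTHrP and 304 to 354 in controls, with Pecam1, Tie1, Vwf, Emcn and Cldn5 dim, and 0 of 8 passed. Lymphocyte markers summed to 180 to 212 with PTH, 181 to 211 with PTHrP and 192 to 214 in controls, with 6 of 7 dim and 0 passing. Of 8 smooth muscle and pericyte markers, Myh11 and Pdgfrb fell with both peptides, and the sum was 24014 to 24259 with PTH, 22991 to 24383 with PTHrP and 25787 to 26478 in controls. Of 7 fibroblast markers Lum fell with PTH, and the sum was 38195 to 39110 with PTH, 37093 to 40086 with PTHrP and 39144 to 39737 in controls. The part of these cells in the Nr4a signals was not tested.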

How the data were processed

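Biotinylated cRNA made from total RNA was read on Affymetrix arrays, per the labels' protocols. The authors deposited 1 intensity per probe set and array, and the sources used here do not give how probes were summarised, corrected for background or scaled. A linear scale was taken from the range of the values. The deposited intensities, with 16 added, were taken to log2 and modelled by limma 3.58.1 (R 4.3.3) as 3 group means over 9 arrays. P-values were two-sided and adjusted by Benjamini and Hochberg over 45037 probe sets, after 64 array controls were left out. Each probe set of the family was kept apart. Other genes were read by their brightest probe set, among 34945 with 1 symbol (932 had several and 9160 none). Single values were compared by exact permutation over 84 splits. Plots used matplotlib 3.10.9 (Python 3.11.15). Promoter windows come from RefSeq tables.

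The members, lists and naming rule were chosen with earlier results of these data known. The rule named every Nr4a probe set, up to 6 genes per list that passed with either peptide, a few fixed genes, and the 5 genes most like a passing member. The alternatives were quantile normalization, median centring, leaving out dim probe sets, the brightest or the mean probe set of a gene, a trended and robust variance, pseudocounts of 1 and 64, a block for the replicate number, fitting only the groups compared, and leaving out each array. On simulated data with 45037 probe sets, 42% of log2 changes of 0.5 and 90% of changes of 1 were found for PTH against control, with 6 false among 138 calls, while for PTHrP against control the shares were 40% and 88% and 11 of 139 calls were false. Each size was given to 100 probe sets that were not dim, alike for both peptides. The shares thus do not cover dim probe sets or the larger number of calls in the data. The number of arrays limits the precision. Same-numbered arrays had correlations of deviations between -0.202 and 0.172, and differently numbered ones between -0.235 and 0.317. With 3 arrays a group, such correlations cannot decide whether the numbers pair the samples.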

Additional observations from a re-analysis of the deposited data

How the results depend on the processing

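With each peptide, the rise of Nr4a3 1438796_at kept its direction and its call under every alternative except the mean of probe sets. The log2 changes ran from 0.25 to 1.09 for PTH and from 0.28 to 1.11 for PTHrP, where 0.25 and 0.28 are of the mean of the 3 Nr4a3 probe sets. For 1438796_at itself the lowest PTH change was 0.61, with a pseudocount of 64. For both peptides together the call held under all 18 settings, of which the mean of probe sets was 1. Nr4a2 1455034_at kept its PTH call under all 17 settings tried (0.31 to 0.49), while with PTHrP the call was lost in 5 of 17, with the replicate block (adjusted p = 0.0601, limma) and with only the groups compared (0.074) besides the 3 arrays already named. Nr4a2 1450750_a_at passed with PTHrP when dim probe sets were left out (adjusted p = 0.0341, limma). With both peptides it passed under quantile normalization (0.0404), with dim probe sets left out (0.023) and with a pseudocount of 64 (0.0377). Each made 3 Nr4a calls in place of 2, of 10 tested, or of 7 with dim probe sets left out. More of all probe sets passed in each of these settings too. With both peptides they were 3093 of 27022 with dim probe sets left out and 3017 of 45037 with the pseudocount of 64. The main fit had 1860 of 45037. With PTHrP and dim probe sets left out, 1998 of 27022 passed, in place of 1076 of 45037. A scan batch could not be fitted for want of scan dates. With the replicate block the calls of Egr3 (adjusted p = 0.0652) and Mef2c (0.0644) were lost for PTH, and those of Mef2a (0.0575 and 0.0571), Pth1r (0.0717 and 0.0734) and Slc2a4 (0.0943 and 0.0734) for PTH and PTHrP, so the receptor-to-CREB list held 1 call with PTH and 2 with PTHrP. The cAMP list held 5 to 12 calls with PTH and 6 to 13 with PTHrP over all settings. The cause of these changes was not tested. The 3 arrays a group, and the dimness of 3 of the 10 probe sets, limit what can be read.

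Of the 10 Nr4a probe sets, 1 instead of 2 passed with PTH, PTHrP and both peptides when 1 brightest probe set stood for each gene, where the choice leaves 3 to test, and 0 with PTH and PTHrP when probe sets were averaged. For both peptides together, 2 of the 3 averaged genes passed. With PTHrP 1 passed with the replicate block and 1 with only the groups compared, and leaving out 1 array gave 1 to 2. Over all probe sets, the calls were 1217 for PTH, 1076 for PTHrP and 1860 for both. With dim probe sets left out they became 2231, 1998 and 3093, of 27022 tested in place of 45037. They were 2611, 2375 and 3384 with a trended and robust variance, 518, 467 and 949 with the replicate block, and 2214, 1996 and 3017 with a pseudocount of 64. With only the groups compared they were 695 for PTH and 365 for PTHrP. The mean of probe sets gave 1109 for both, of 18193 genes tested. Counts over unlike numbers tested are not shares and cannot be compared directly. Leaving out 1 array gave 398 to 1090 for PTH, 468 to 795 for PTHrP, 0 to 1 for PTH against PTHrP and 860 to 1588 for both. The lowest PTH counts came without a PTH array or control replicate 2 or 3. A pseudocount of 1 gave 1 call for PTH against PTHrP, in place of 0.

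Changes of sign touched values near 0 that had not passed. With the mean of probe sets Nr4a2 had 0.21 for PTHrP, -0.043 for PTH minus PTHrP and 0.19 for both, and Rxra had 0.042 for PTHrP. When 1 array was left out, values against control crossed 0 for PTH at 1450749_a_at (-0.052 to 0.091), 1433422_at (-0.020 to 0.13), 1433423_at (-0.084 to 0.27) and 1421080_at (-0.060 to 0.0029) and for Fos (-0.079 to 0.043), and for PTHrP at 1450749_a_at (-0.13 to 0.012) and 1421079_at (-0.094 to 0.038) and for Rxra (-0.039 to 0.040). For both peptides they did so at 1450749_a_at (-0.092 to 0.051) and 1433423_at (-0.030 to 0.23), and for PTH minus PTHrP at 1447863_s_at (-0.29 to 0.11), 1433423_at (-0.21 to 0.090) and Nr4a3 1438796_at (-0.11 to 0.084).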

Other observations

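At Nr4a2 1450750_a_at the same deposited value, 60.2, stands on control replicates 1 and 3, and 83.36 stands on PTH replicate 3 and PTHrP replicate 3. Among 27022 probe sets at or above the dim level, 0.718% had an identical value on 2 or more arrays, and this was the only one of the family. The SD of its controls, 0.191, is thus the smallest of any bright probe set of the family.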
